A study of Mus musculus with 2 samples.

Results

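Paired receptors of myeloid cells were examined in mouse neutrophils exposed to tumor exosomes. The set was fixed by name and held 10 genes: Lair1, Pirb, Cd300a, Cd300lf, Cd300ld, Siglece, Cd33, Sirpa, Pilra and Trem1. Both expression tables list 35522 features, and 9 of the 10 names were found among them. Pirb was not found under that name. A feature called Lilrb3, which RefSeq gives as a synonym of Pirb and of no other gene, was read beside the 9 and was left out of their counts.

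Paired receptors are families of closely related surface proteins in which some members restrain the cell and others activate it. Inhibitory members carry immunoreceptor tyrosine-based inhibition motifs (ITIMs) in their tails, which recruit the phosphatases encoded by Ptpn6, Ptpn11 and Inpp5d after Src family kinases such as Lyn have phosphorylated them. Activating members have short tails and signal through adaptors with activation motifs, encoded by Tyrobp and Fcer1g, to the kinase Syk. In neutrophils such receptors set the threshold for adhesion, the oxidative burst and cytokine release.

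The cells were CD11b(+), Ly-6G high and Ly-6C low to negative cells from the bone marrow of mice (Balb/C animals aged 5 to 8 weeks, per the study's methods), held in RPMI-1640 medium with 10 ng/ml of the growth factor GM-CSF. The control culture received PBS for 3 days. The other received tumor exosomes at 20 μg/ml for 3 days. These vesicles were shed by cultures named SDCSCs, spheres raised in a serum-free stem cell medium from CT26, a mouse colon carcinoma line. Both cultures thus carried GM-CSF, and whether RNA of several mice was pooled is not stated. Each treatment was sequenced as 1 library (no replicates), so the spread between cultures is unknown and no test was made. "Higher" and "lower" are used for the deposited values of these 2 libraries.

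Expression was deposited as RPKM, which scales reads by exon length and by the mapped reads of a library, so that levels may be compared between genes. Depth came to an estimated 65.96 M mapped reads in the PBS library and 79.13 M in the exosome library. The neutrophil label was checked against 13 marker genes, all of which were detected in both libraries. Of these, 10 were lower by 2-fold or more with exosomes, 0 were higher by 2-fold or more, and 2 were higher by less. Of all 9698 genes at 0.25 RPKM or more in both libraries, 5.62% were lower and 31.5% higher by 2-fold or more. The summed RPKM of the 13 was 84597 in PBS and 30474 with exosomes. Most of it came from S100a8 (32822.8 and 14381.8 RPKM) and S100a9 (43059.1 and 13834.1 RPKM). Ly6g, which encodes the antigen used in the sort, had 286.96 and 56.19 RPKM, and Mmp8, Retnlg, Camp, Ltf and Ngp, which encode granule or secreted proteins, were each lower by 4-fold or more as well. Of 13 monocyte and macrophage markers, none was at 0 and 11 were higher with exosomes by any amount. Over all 35522 features, 10254 were higher by any amount and 5057 were lower. At 0.25 RPKM or more in both libraries were 8 of these 13 markers. Of the 8, 4 were at least 2-fold higher and 1 at least 2-fold lower, beside 31.5% and 5.62% of all such genes. The summed RPKM of all 13 was 349.28 in PBS and 499.96 with exosomes. Csf1r had 58.1 and 152.64 RPKM, Emr1 20.91 and 151.51, and Ly6c2 184.41 and 37.12. The complement genes C1qb and C1qc had 0.3 and 2.3 RPKM and 0.27 and 3.79 RPKM. Summed markers of dendritic cells went from 12.5 to 6.53 RPKM, of eosinophils, basophils and mast cells from 12.3 to 6.84, of lymphocytes from 71.9 to 45.4, and of erythroid cells and platelets from 24.8 to 25.7, and 6 carcinoma markers summed to 0.49 RPKM at most. In bulk RNA, fewer cells of a type and less RNA per cell cannot be told apart.

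The promoters of 3 receptors are shown because these receptors had the largest increase and the largest decrease of the set, and because Siglece and Cd33 lie close together on chromosome 7 yet moved in opposite directions. Each sequence is the 250 bases before the start given in a promoter table from RefSeq (GRCm38.p6, minus strand, written 5′ to 3′). That table holds 1 start for each of these 3 receptors, and it lies inside the outer end of the annotated gene, by 10363 bases in Lair1, 11883 in Siglece and 4253 in Cd33, so promoters farther upstream were not examined. Capitals mark the hexamer GAGGAA or its reverse complement TTCCTC, the core of the PU.1 box, where PU.1 is a transcription factor of myeloid cells.
Lair1, chr7:4063205-4063454: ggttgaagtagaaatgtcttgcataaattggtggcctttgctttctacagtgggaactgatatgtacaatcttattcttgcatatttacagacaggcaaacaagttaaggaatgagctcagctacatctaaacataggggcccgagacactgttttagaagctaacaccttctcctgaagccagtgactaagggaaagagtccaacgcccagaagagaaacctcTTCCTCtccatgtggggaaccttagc
Siglece, chr7:43660162-43660411: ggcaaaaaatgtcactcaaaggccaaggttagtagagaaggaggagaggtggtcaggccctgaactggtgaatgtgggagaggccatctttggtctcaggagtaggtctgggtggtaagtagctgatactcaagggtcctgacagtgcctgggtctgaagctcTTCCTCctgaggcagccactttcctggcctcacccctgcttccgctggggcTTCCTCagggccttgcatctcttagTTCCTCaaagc
Cd33, chr7:43533172-43533421: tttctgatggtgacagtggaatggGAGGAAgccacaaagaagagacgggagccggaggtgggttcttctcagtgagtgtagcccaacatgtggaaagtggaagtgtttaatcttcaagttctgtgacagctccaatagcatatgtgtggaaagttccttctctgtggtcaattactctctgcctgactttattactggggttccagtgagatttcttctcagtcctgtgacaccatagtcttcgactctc

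The hexamer begins 26 bases before the start in Lair1 and 226 bases before it in Cd33. Siglece has 3 copies, at 87, 36 and 11 bases. The promoter table matched 9 of the 10 genes (Sirpa was not among them), and all 9 hold the hexamer on either strand within these 250 bases. In 3 of them the start used is the outer end of the gene, and in 6 it lies inside. The share is 23.3% over all 32851 promoters in the table and 36.7% over 98 promoters of the related genes described further on. A C/EBP-like sequence, TTGCNNAA, is present in Cd300a, Lair1 and Pilra, against 9.56% of all promoters. An NF-κB motif was found in Cd300ld (1.21% of all promoters) and an IRF motif in Pilra (2.98%). Both strands were searched for each, and matches of different motifs may overlap at their ends. These matches describe letters. Receptors that were higher, lower and little changed all carry the PU.1 hexamer.

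All 9 receptors passed the filter of 0.25 RPKM in both libraries. With exosomes, 4 of them (Lair1, Siglece, Cd300ld and Pilra) were at least 2-fold higher, and 31.5% of all 9698 genes kept were so. Cd33 was the 1 receptor at least 2-fold lower, and 5.62% of all genes kept were so. Counted together, 5 of the 9 passed 2-fold, against 37.1% of all genes kept. Lair1 alone was at least 4-fold higher, as were 8.52% of all genes kept. The other 4 receptors stayed within 2-fold. The median log2 ratio of exosome over PBS was 0.15 for the 9 receptors and 0.53 for all genes kept. A share of the whole table is a loose comparison, because the ratio varied with expression level. In the tenth of genes with the highest mean level, which holds 7 of the 9 receptors, 10.8% of genes were higher, 11.3% were lower and the median log2 ratio was 0.01.

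The summed RPKM of the 9 receptors was 1326.85 in PBS and 1347.98 with exosomes, so the total as deposited was similar while its make-up differed. Median centring would lower the exosome total relative to PBS. Siglece made up 6.42% of this sum in PBS and 21.3% with exosomes. The share of Cd33 went the other way, from 25.6% to 9.33%. In PBS the order of levels was Cd33, Sirpa, Cd300lf, Trem1, Pilra, Siglece, Cd300a, Cd300ld and Lair1. With exosomes it was Sirpa, Siglece, Pilra, Cd300lf, Trem1, Cd33, Cd300ld, Cd300a and Lair1. Of the neighbours in these orders, Pilra and Siglece in PBS had counting intervals that overlapped, and the other pairs were apart by counting error.

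**Figure D1:**
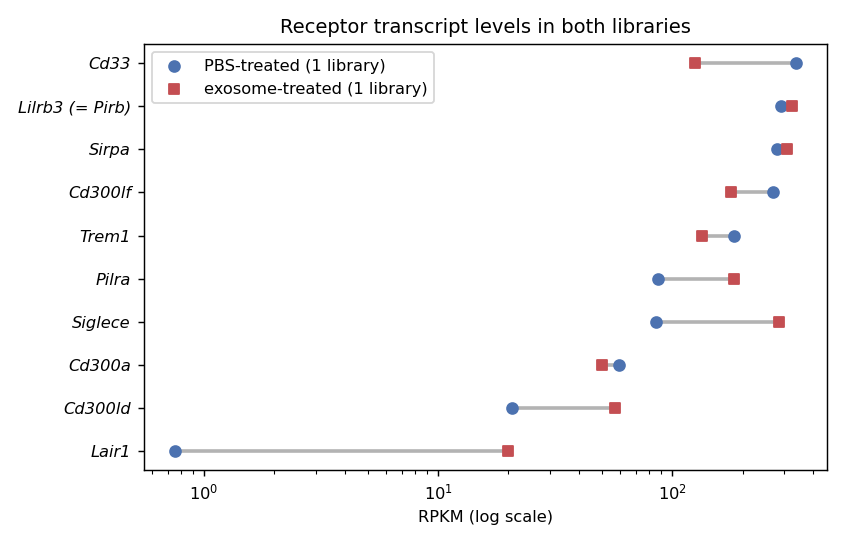
RPKM (log scale) of the 9 receptors and of Lilrb3, the synonym of Pirb, in the PBS-treated library (circles) and the exosome-treated library (squares), 1 library each, with no error bars since there are no replicates. Lair1 moved from 0.75 to 19.9 RPKM, Siglece from 85.2 to 287.54 and Cd33 from 339.75 to 125.74, whereas Sirpa and Lilrb3 stayed close to their PBS levels.

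Lair1 encodes an inhibitory receptor for collagens (chromosome 7, 4007073 to 4073567, mm10 as are all positions below). It had 0.75 RPKM in PBS-treated and 19.9 RPKM in exosome-treated neutrophils. The lowest of the set in both libraries, its PBS value stands for about 338 reads. The exosome value stands for about 10752 reads. The ratio was 26.5, a log2 ratio of 4.73 with a 95% counting interval of 4.57 to 4.89, and ranked number 13 among the 9698 genes kept. Among 969 genes of similar mean level, 46.6% were at least 2-fold higher, and the ratio of Lair1 exceeded that of 99.7% of them. Collagen genes, which encode its ligands, were nearly silent in these cells: Col1a1 and Col1a2 were listed at 0 in both libraries, and Col3a1, Col4a1 and Col17a1 were below 0.01 RPKM in both. C1qa, which encodes a chain of the collagen-like ligand C1q, had 0.18 and 1.42 RPKM. The genes with the most similar pair of levels, by distance in log2 RPKM over the 2 libraries, were Mink1 (0.79 and 22.1 RPKM), Gstm4 (0.71 and 16.7 RPKM) and Cbr3 (0.84 and 16.55 RPKM). Of 13 monocyte and macrophage markers, 11 were higher by any amount in the same library and Ly6c2 was lower. Over all 35522 features, 10254 were higher by any amount and 5057 were lower. The part of monocytes and macrophages in the level of Lair1 was not tested.

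Siglece encodes Siglec-E, an inhibitory lectin that binds sialic acid on glycoproteins and glycolipids and is abundant on mouse neutrophils (chromosome 7, 43648882 to 43672044). Its level was 85.2 RPKM in PBS and 287.54 RPKM with exosomes. The ratio was 3.37 and the log2 ratio 1.75 (counting interval 1.72 to 1.79), above 96.4% of the 970 genes of the highest level group. It moved from sixth to second place among the 9 receptors. The ends of Siglece overlap Ceacam18 by 414 bases and Ctu1 by 74 bases in the annotation. These neighbours were much lower, at 3.76 and 11.63 RPKM for Ceacam18 and 0.38 and 3.03 RPKM for Ctu1, and reads shared at the overlaps cannot be told apart without strand. The nearest genes in level were Lamp1 (83.99 and 282.03 RPKM), Cybb (69.67 and 295.08 RPKM) and Lrrc25 (79.67 and 237.13 RPKM).

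Cd33 encodes another sialic acid-binding lectin of myeloid cells. The mouse protein differs from the human one in its tail, and no single inhibitory or activating role is assigned to it here. Cd33 (chromosome 7, 43527399 to 43537424) headed the set in PBS with 339.75 RPKM and had 125.74 RPKM with exosomes. The log2 ratio was -1.43 (counting interval -1.45 to -1.42), and 2.95% of all genes kept had a lower ratio. The ratio of Siglece to Cd33 within a library, which scaling between libraries cannot alter, was 0.251 in PBS and 2.29 with exosomes. The lectins therefore exchanged places: Cd33 was the higher of the pair in PBS, and Siglece was the higher with exosomes.

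Other sialic acid-binding lectin genes were low. Siglecg and Cd22, known from B cells, had 7.11 and 4.6 RPKM in PBS against 5.56 and 4.02 RPKM with exosomes. The B-cell markers Cd79a and Ms4a1 were present at 38.25 and 15.64 RPKM in PBS and at 24.44 and 10.02 RPKM with exosomes. Siglec1, a macrophage lectin, had 0.13 and 1.59 RPKM, and Siglech 0.43 and 0.17 RPKM, so that each missed the filter in 1 library. Mag had 0.77 and 2.84 RPKM (log2 ratio 1.88). A feature named Siglec5 had 3.57 and 1.92 RPKM, and RefSeq gives that name to both Siglece and Siglecf. Of the 7 relatives in this family 4 were kept, 1 of them (Mag) at least 2-fold higher and 0 lower. Over all genes kept, 31.5% were higher and 5.62% lower by that much.

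Pirb encodes an inhibitory receptor for MHC class I proteins, and the PIR-A genes encode its activating counterparts. Lilrb3, the synonym of Pirb (chromosome 7, 3712505 to 3720382), had 293.24 RPKM in PBS and 324.95 RPKM with exosomes. Its log2 ratio was 0.15 (counting interval 0.13 to 0.16). Pira1 had 147.3 and 130.05 RPKM, Pira2 68.36 and 53.78 RPKM, Pira6 44.99 and 56.93 RPKM, and Lilra6 131.86 and 182.79 RPKM. Against the sum of these 4 genes, Lilrb3 stood at 0.747 in PBS and 0.767 with exosomes. None of the PIR genes passed 2-fold, and this ratio to the sum was nearly the same in both libraries. Against Lilra6 alone, the highest of the 4 over both libraries together, the ratio was 2.22 in PBS and 1.78 with exosomes. Against Pira1 alone, the highest of the 4 in PBS, it was 1.99 and 2.50, so the direction depended on the gene used. Gm14548 (179.2 and 139.05 RPKM) and Gm15448 (52.33 and 64.24 RPKM) lie between Pira1 and Lilra6 on the chromosome. They were left out of the sum, so these ratios hold for the 4 named genes only. These genes are similar in sequence, and how the authors assigned reads shared among them is not stated. Lilrb4, an inhibitory relative, was the most abundant gene of the family at 783.82 and 700.19 RPKM, and Gp49a, which is similar to it in sequence, had 427.73 and 328.13 RPKM. Gp6, a platelet collagen receptor, had 0.45 and 0.66 RPKM. Of 15 PIR and LILR relatives listed, 10 were found, 7 were kept and 0 passed 2-fold in either direction. Over all genes kept, 37.1% passed it.

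Among the genes encoding class I ligands, B2m was higher with exosomes (564.56 and 1287.81 RPKM, log2 ratio 1.19), whereas the heavy chain genes H2-K1 and H2-D1 were lower, at 677.21 and 401.85 RPKM and at 1554.43 and 1040.83 RPKM.

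Lair1 lies beside the PIR genes on chromosome 7. Within 400 kb of it, 25 coding genes are annotated by RefSeq and 18 were kept. Their log2 ratios ran from -1.18 (Tmc4) to 1.75 (Prpf31) with a median of 0.14, so that the value of 4.73 for Lair1 was not shared by its neighbours. Around Siglece, 11 of 38 coding genes were kept, 3 of them higher (Etfb, Ceacam18 and Ctu1) and 3 lower (Cd33, Gm2511 and 4931406B18Rik). Ceacam18 and Ctu1 are the genes that overlap Siglece, so shared reads are a limit for them. Gm2511 and 4931406B18Rik lie near Cd33 and had log2 ratios of -1.81 and -1.87. The median of the 11 was -0.13.

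**Figure D2:**
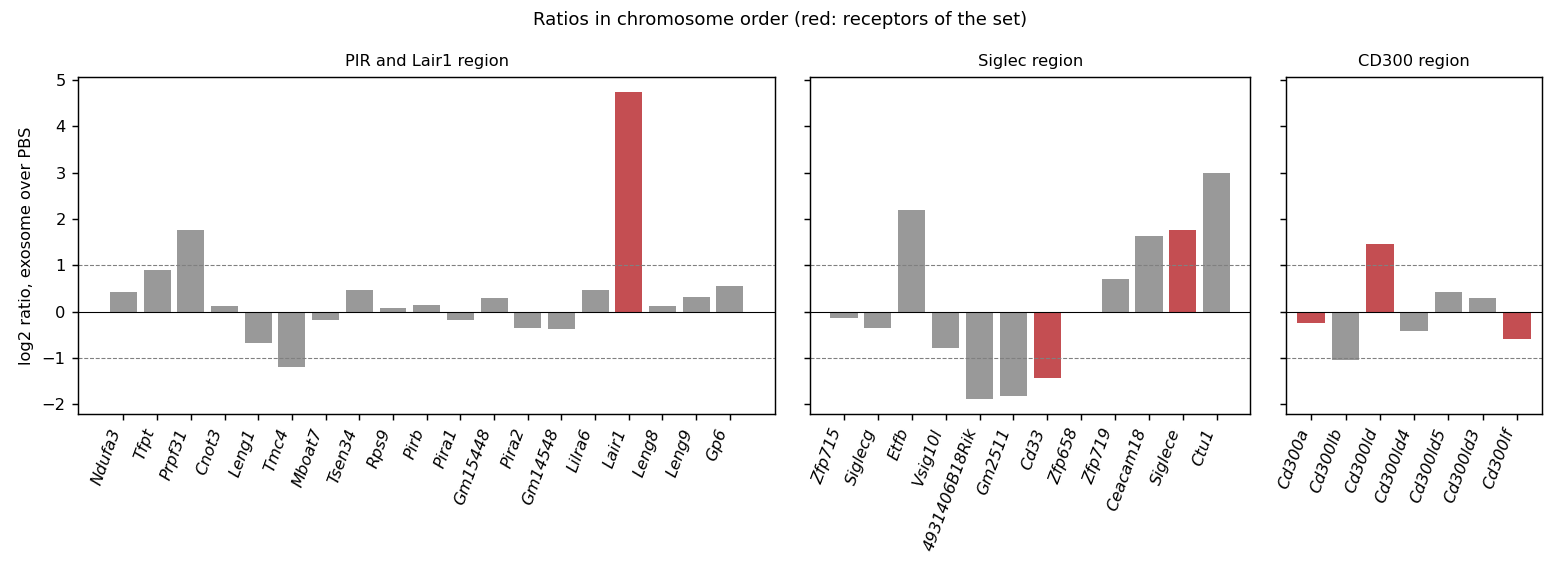
Log2 ratio of exosome over PBS (bars, 1 library per treatment) for kept coding genes in chromosome order, within 400 kb of Lair1 (left) and of Siglece (middle), and for the CD300 genes (right). Dashed lines mark 2-fold, red bars are receptors of the set, names are those of RefSeq, and Pirb (grey) was read from Lilrb3. Lair1, at 4.73, stands above every other bar of its region, Cd33 and Siglece point in opposite directions, and the CD300 genes are mixed.

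The CD300 receptors bind lipids such as phosphatidylserine on dying cells. Cd300a and Cd300lf encode inhibitory members. Cd300a (chromosome 11, 114889152 to 114901946) had 59.59 RPKM in PBS and 50.29 RPKM with exosomes, a log2 ratio of -0.24 (counting interval -0.27 to -0.22). Cd300lf (chromosome 11, 115116214 to 115135372) was the most abundant CD300 gene, with 268.92 RPKM in PBS and 178.74 RPKM with exosomes, a log2 ratio of -0.59 (counting interval -0.61 to -0.57). It lies wholly within the span of Rab37, which had 3.28 and 2.37 RPKM. Both inhibitory genes were thus lower with exosomes, and neither passed 2-fold.

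Cd300ld (chromosome 11, 114982443 to 114989886) encodes an activating member that pairs with the adaptor encoded by Fcer1g. It had 20.8 RPKM in PBS and 56.93 RPKM with exosomes, a ratio of 2.74 and a log2 ratio of 1.45 (counting interval 1.40 to 1.51). Its adaptor gene Fcer1g showed a ratio of similar size, from 538.25 to 1489.47 RPKM (log2 ratio 1.47, counting interval 1.45 to 1.49). The genes nearest to Cd300ld in level were Hn1 (22.09 and 57.97 RPKM), 2010107E04Rik (22.01 and 62.04 RPKM) and Ywhab (22.15 and 51.65 RPKM). Cd300lb, another activating member, which uses the adaptor encoded by Tyrobp, went the other way, from 237.55 to 115.36 RPKM (log2 ratio -1.04, counting interval -1.06 to -1.02). The activating CD300 genes therefore moved apart. Cd300a and Cd300lf together stood at 1.27 times the sum of Cd300ld and Cd300lb in PBS and at 1.33 times with exosomes, and against Cd300lb alone, the more abundant of that pair, at 1.38 and 1.99 times. Of the other relatives, AF251705 had 163.03 and 147.09 RPKM, Cd300lh 107.1 and 130.71 RPKM, and Cd300e 0.17 and 1.2 RPKM. Of the 6 relatives found, 3 were kept and 1 (Cd300lb) was at least 2-fold lower, as were 5.62% of all genes kept. The family is similar in sequence, and shared reads are again a limit.

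Sirpa encodes the receptor for the "do not eat me" protein CD47 (chromosome 2, 129591042 to 129632228). It had 280.77 RPKM in PBS and 311.31 RPKM with exosomes, a log2 ratio of 0.15 (counting interval 0.14 to 0.16) that turned to -0.38 under median centring and -0.39 with a trimmed mean subtracted. The ligand gene Cd47 was higher with exosomes, at 26.13 and 57.91 RPKM (log2 ratio 1.15, counting interval 1.11 to 1.18). The activating relatives Sirpb1a and Sirpb1b had 66.16 and 37.62 RPKM in PBS and 65.58 and 34.83 RPKM with exosomes. Sirpa stood at 2.71 times their sum in PBS and 3.10 times with exosomes. Reads shared between similar copies are a limit here too. For Sirpb1a the counting interval of the log2 ratio, -0.05 to 0.03, includes 0, so its difference was within counting error. Such intervals do not cover the spread between cultures, which is unknown.

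Pilra encodes the inhibitory member of the PILR pair, and Pilrb1 and Pilrb2 encode activating counterparts that use the adaptor of Tyrobp. Pilra (chromosome 5, 137821952 to 137836278) had 87.14 RPKM in PBS and 183.74 RPKM with exosomes, a ratio of 2.11 and a log2 ratio of 1.08 (counting interval 1.05 to 1.10). Pilrb1 had 53.82 and 83.14 RPKM and Pilrb2 58.5 and 68.5 RPKM, and both stayed within 2-fold. The inhibitory transcript was 0.776 times the sum of the activating pair in PBS and 1.21 times with exosomes. This is a change of 1.56-fold in a ratio that does not depend on scaling between libraries. Similar copies may share reads, which is a limit for this ratio as well. Pilra is the member closest above the limit of 2.

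**Figure D3:**
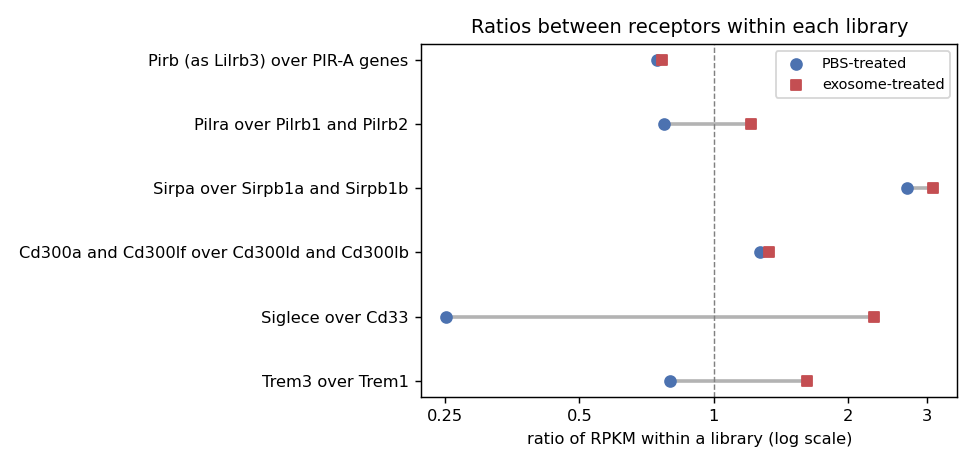
Ratio of RPKM between related receptors within a library (log scale) in PBS-treated (circles) and exosome-treated (squares) neutrophils, 1 library each. Siglece over Cd33 moved from 0.251 to 2.29, Trem3 over Trem1 from 0.797 to 1.62 and Pilra over its activating pair from 0.776 to 1.21, whereas the Pirb and CD300 ratios, to the sums of the activating genes, stayed near their PBS values.

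Trem1 encodes an activating receptor that amplifies inflammatory responses of neutrophils and monocytes (chromosome 17, 48232713 to 48246927). It had 183.93 RPKM in PBS and 133.79 RPKM with exosomes, a log2 ratio of -0.46 (counting interval -0.48 to -0.44). Pglyrp1, which encodes a ligand of this receptor stored in neutrophil granules, was lower as well, at 423.08 and 247.29 RPKM (log2 ratio -0.77). Trem3, an activating neighbour, had 146.54 and 216.56 RPKM, so that the ratio of Trem3 to Trem1 was 0.797 in PBS and 1.62 with exosomes. Treml2 was lower with exosomes, at 39.96 and 12.75 RPKM (log2 ratio -1.65), Treml4 had 41.48 and 49.58 RPKM, and Treml1, a platelet gene, 1.04 and 0.61 RPKM. Trem2, a receptor of macrophages, had 0.91 and 2.79 RPKM (log2 ratio 1.62, counting interval 1.43 to 1.81). Of these 5 relatives 1 was at least 2-fold higher and 1 at least 2-fold lower, beside 31.5% and 5.62% of all genes kept.

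By role, 3 of the 6 inhibitory receptors found (Lair1, Siglece and Pilra) were at least 2-fold higher and 0 were lower, beside 31.5% and 5.62% of all genes kept. Under median centring and trimmed mean subtraction Pilra left the higher group and Cd300lf was at least 2-fold lower, which gives 2 higher and 1 lower. The summed RPKM of the 6 as deposited was 782.37 in PBS and 1031.52 with exosomes. Of the 2 activating receptors, Cd300ld was higher and Trem1 stayed within 2-fold, and their sum was 204.73 and 190.72 RPKM. Both sums depend on scaling between libraries. They were not recomputed under median centring, which lowers exosome values relative to PBS.

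Genes that carry the inhibitory signal were mostly higher with exosomes, as were most genes kept. Of 12 such genes, 10 had a higher value, 3 passed 2-fold (Dok2 and Ptpn11 among them) and 0 were lower by 2-fold. Over all genes kept, 26.8% were lower by any amount. The shares over all genes kept were 31.5% at least 2-fold higher and 5.62% at least 2-fold lower. Ptpn6, which encodes the phosphatase SHP-1, had 278.66 and 546.4 RPKM (log2 ratio 0.97, counting interval 0.96 to 0.99), just under the limit. Ptpn11, which encodes its relative SHP-2, had 11.13 and 22.27 RPKM, and its log2 ratio had a counting interval of 0.95 to 1.05, which includes the limit of 2-fold. Dok2, an adaptor that dampens kinase signalling, had 2.85 and 18.17 RPKM. Inpp5d, which encodes the lipid phosphatase SHIP-1, had 81.53 and 74.61 RPKM, and the kinase gene Lyn 160.26 and 181 RPKM. The median log2 ratio of this list was 0.39, below the 0.53 of all genes kept, so relative to that median most of the list was not higher.

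Of 18 genes of the activating pathway, Fcer1g alone passed 2-fold, and 0 were lower by 2-fold, beside 31.5% and 5.62% of all genes kept. Tyrobp, the adaptor gene for Trem1, Cd300lb, Pilrb1 and Pilrb2, had 1935.56 and 1571.41 RPKM (log2 ratio -0.30). The adaptor gene Hcst had 75.95 and 74.67 RPKM, with a counting interval of -0.11 to 0.06 that includes 0. Syk had 200.46 and 315.23 RPKM (log2 ratio 0.65). The median of the list was -0.04. The adaptor genes therefore differed, with Fcer1g higher and Tyrobp lower in the exosome-treated library, and their levels came close together there.

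Among 17 ligand genes found, 8 were kept, and 3 of them (Cd47, B2m and Clec2d) were at least 2-fold higher. Of 14 other inhibitory receptors, 12 were kept, 3 were higher and 1 was lower. Havcr2, which encodes the checkpoint receptor TIM-3, had 0.38 and 4.28 RPKM (log2 ratio 3.49, counting interval 3.14 to 3.88). Pecam1, an adhesion receptor with ITIMs, had 2.43 and 10.38 RPKM (log2 ratio 2.09). Klra17, which encodes Ly49Q, a receptor for class I proteins, was lower at 83.34 and 15.92 RPKM (log2 ratio -2.39). Over all related lists, 83 genes other than the receptors were kept, with 15 higher and 6 lower by 2-fold. For comparison with this count and those above, 31.5% of all genes kept were higher and 5.62% lower by 2-fold. The median log2 ratio of the 83 was 0.12 and turned to -0.41 under median centring.

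C-type lectin and Fcγ receptors, some of which share the adaptors above, were also mixed. Of 8 C-type lectin genes kept, 2 were higher and 2 lower, among them Clec4a1 (8.06 and 381.47 RPKM), Clec4a3 (8.96 and 522.89 RPKM) and, on the lower side, Clec7a (359.07 and 116.25 RPKM). Of 3 Fcγ receptor genes kept, Fcgr4 was higher (33.33 and 91.48 RPKM) and Fcgr3 lower (448.99 and 145.78 RPKM). Over all genes kept, 31.5% were at least 2-fold higher and 5.62% at least 2-fold lower. No test set the paired receptors against the C-type lectin or Fcγ receptors.

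**Figure D4:**
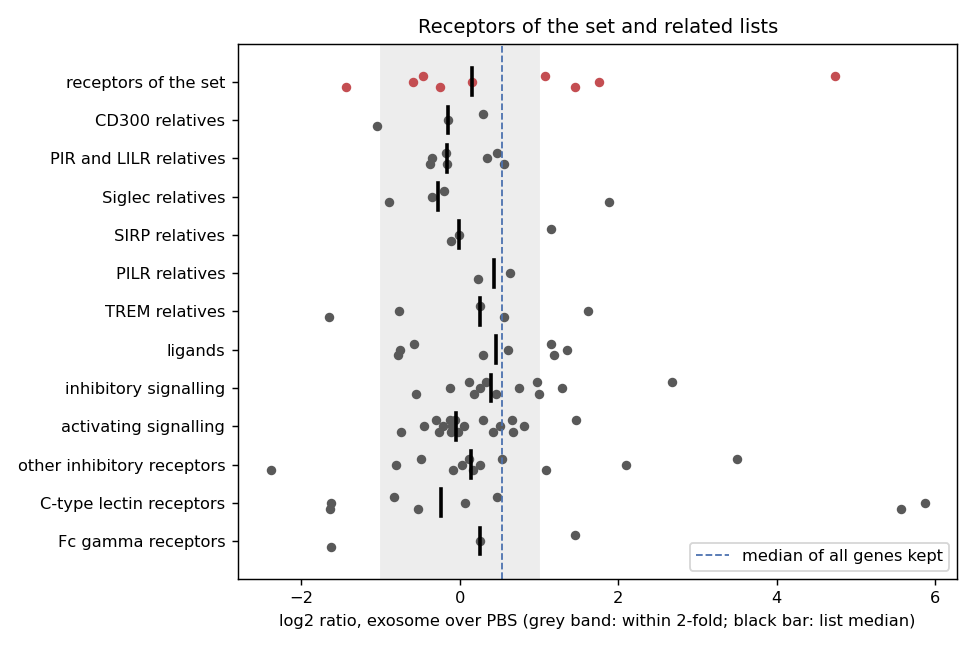
Log2 ratio of exosome over PBS for each kept gene (points) of the receptor set and of the related lists, with the median of each list (black bar), the median of all genes kept (dashed line, 0.53) and the 2-fold range (grey band), 1 library per treatment. The receptor set spans from -1.43 to 4.73 around a median of 0.15, and most points of the signalling lists lie inside the band.

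The values above are as deposited, without centring of the libraries on each other. Median centring moved the median of all genes by -0.53 and removal of a trimmed mean by -0.54 on the log2 scale. Relative to those shifts Pilra (0.55 and 0.53) and Cd300ld (0.93 and 0.91) came within 2-fold, and Cd300lf (-1.12 and -1.13) passed the limit downward, while Trem1 (-0.99 under median centring) passed it under the trimmed mean alone. Lair1 and Siglece stayed at least 2-fold higher, and Cd33 at least 2-fold lower, under every scaling tried. Centring within groups of genes of similar level left all 9 calls as they were.

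**Figure D5:**
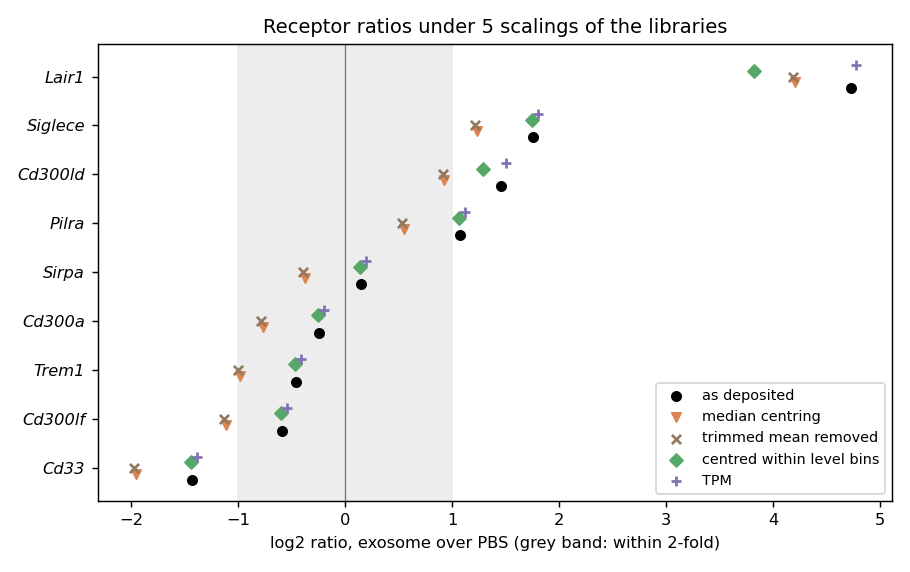
Log2 ratio of exosome over PBS for the 9 receptors as deposited and under 4 other scalings of the 2 libraries (markers), with the 2-fold range in grey. Lair1 (lowest value 3.82), Siglece and Cd33 lie outside the grey band under each scaling shown, and Sirpa changes sign under median centring and removal of the trimmed mean.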

How the data were processed

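RNA of 2 neutrophil cultures, 1 per treatment, was made into mRNA libraries with a TruSeq kit and sequenced on a HiSeq instrument. With CLC Genomics Workbench the authors trimmed reads below a Phred score of 20, and they deposited 1 RPKM value (reads divided by exon length in kb and by the M of mapped reads) for each of 35522 features. The submitters' processing notes name mm10, and the gene annotation, the handling of shared reads and the use of strand are not given in the sources used here.

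RPKM are not counts, so no count model was fitted, and with 1 library per group no test was made. Genes were kept at an RPKM of at least 0.25 in both libraries and called at a ratio of at least 2 or at most 0.5, the limits named in the study's supplementary gene list, with no pseudocount. Depth was estimated from values below 0.01 RPKM, which for many features are 1 read. With the longest GENCODE M21 transcript of the symbol as length, they gave the same total, within 0.5%, for 223 of 918 features in PBS and 262 of 1064 with exosomes. Reads estimated from these depths gave the 95% exact intervals (Clopper-Pearson for ratios, Poisson for levels), which cover counting error only. They leave out variation between cultures and depend on the transcript length assumed. Scripts used Python 3.11.15, pandas 2.3.3 and scipy 1.17.1 and were tested on simulated reads.

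Receptors and lists were chosen with earlier results of these data known. Named were all members, family relatives at 0.25 RPKM or more in either library, preset adaptors, phosphatases and ligands, and other listed genes that changed at least 4-fold. The 3 genes nearest in log2 RPKM were also named for each of the 3 members with the largest change. Other genes with values, such as H2-K1, H2-D1, Csf1r, Clec7a, the Fcγ receptors, the collagens, C1qa and the B-cell markers, were chosen after their values were seen, as were the Siglece to Cd33, CD300 and Trem3 to Trem1 ratios. Alternatives were 4 other scalings, a pseudocount of 1, a filter on either library with a pseudocount of 0.25, an RPKM of at least 1 and a ratio of at least 4. Protein sequences were not used here. Values of some listed genes are not reported here.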

Additional observations from a re-analysis of the deposited data

How the results depend on the processing

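As deposited, 4 receptors were at least 2-fold higher and 1 lower with exosomes. Median centring gave 2 and 2, and subtraction of a trimmed mean gave 2 and 3. A ratio of at least 4 left 1 and 0. The other settings, including one added after seeing the data that counted Lilrb3 as Pirb, kept these counts within 1.5 times, and an RPKM of at least 1 in both libraries removed Lair1 from the genes kept. With a pseudocount of 1 the log2 ratio of Lair1 was 3.58.

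Among the 83 related genes kept, 15 were higher and 6 lower. These numbers were 7 and 17 under both median centring and trimmed mean removal, and 5 and 1 at a ratio of at least 4, and centring within level groups gave 11 lower. Over all genes, 3056 higher and 545 lower became 1634 and 1282 under median centring, 1594 and 1322 with the trimmed mean removed, 1290 and 1304 under centring within level groups, and 826 and 111 at a ratio of at least 4. A pseudocount of 1 left 1976 higher and an RPKM of at least 1 left 1958. Of all calls 84.9% were increases as deposited, and 56.0%, 54.7% and 49.7% under the 3 centrings. These centrings assume that most genes did not change, which the libraries cannot show.

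The next ratios use only the activating genes counted in the sums above. Against the one with the highest sum over both libraries, Lilrb3 stood at 2.22 (PBS) and 1.78 (exosomes) times Lilra6. Pilra stood at 1.62 and 2.21 times Pilrb1, and Sirpa at 4.24 and 4.75 times Sirpb1a. The Lilrb3 ratio was then lower with exosomes instead of slightly higher. Against the counted activating gene highest in PBS, chosen after seeing the data, Lilrb3 stood at 1.99 and 2.50 times Pira1. Pilra stood at 1.49 and 2.68 times Pilrb2, and the gene for Sirpa was the same.

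No paired analysis was possible because each treatment has 1 library, and leaving a library out was likewise impossible. Depth was not the limit for the receptors, whose counting intervals were narrow.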
